A study of Mus musculus with 3 samples.

Results

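The genes of MHC class II antigen presentation were examined in LT-HSCs, the long-term haematopoietic stem cells of bone marrow, which sustain blood formation. Their 10 members were chosen by gene symbol: H2-Aa, H2-Ab1, H2-Eb1, H2-DMa, H2-DMb1, H2-DMb2, H2-Oa, H2-Ob, Cd74 and Ciita. The family was selected from earlier results on these same arrays, in which H2-Eb1 and Cd74 had already stood out. The members' own values are therefore a description. All 10 were found, each as 1 probe set, among 23185 probe sets with a gene symbol and 25206 probe sets in all.

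The study compared 3 groups of female C57Bl/6 mice aged 8 to 10 weeks: non-irradiated mice, mice given 8 Gy at CDR and mice given 8 Gy as FLASH. Both doses were total body irradiation (TBI). CDR, which the labels do not spell out, is taken as conventional dose rate, and FLASH is delivery at an ultra-high dose rate. From each group 10000 LT-HSCs were isolated 15 days after TBI and their RNA was hybridised to 1 Affymetrix array. With 1 array per group no difference has a replicate check, no test was possible, and "higher" and "lower" describe these arrays only. Not stated in the sources used here are the sorting gate and how many mice each array pools.

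Levels are log2 values as deposited, and a difference of 1 is 2-fold. A gene was counted as detected where the brighter array of a comparison read above the 95th percentile of 1364 sensory receptor genes (olfactory, vomeronasal and trace amine), which blood cells are assumed not to express. This threshold, the detection level, was 4.15, 4.16 and 4.22 on the non-irradiated, CDR and FLASH arrays. All 10 members were above it on all 3 arrays. The arrays often shared exact values: 39.8% of probe sets had 1 value on all 3 arrays, and the median difference of all detected genes was 0.00 in every comparison. Of 8 measured LT-HSC marker genes, all read above the detection level on every array. Among them Hlf, which encodes a stem cell transcription factor, read 9.92, 7.92 and 8.02 on the non-irradiated, CDR and FLASH arrays, and Procr, the surface marker EPCR, 7.15, 5.42 and 6.33. On CDR 0 of the 8 were higher than on the non-irradiated array, 7 lower and 1 tied, with a median difference of -0.33. On FLASH 1 was higher, 6 lower and 1 tied, with a median of -0.44. The summed linear level of the 8 was 2648, 1431 and 1282 in the same order of arrays. Without Hlf it was 1678, 1189 and 1023.

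MHC class II molecules are pairs of an alpha and a beta chain that carry peptides from endosomes to the cell surface, where CD4 T cells read them. The invariant chain Cd74 fills the groove of new molecules, the peptide editor H2-M exchanges its last fragment for a peptide, and H2-O restrains H2-M. The transactivator Ciita switches the genes on through promoter-bound RFX and NFY proteins. Class II is typical of dendritic cells, B cells and macrophages, and has also been described on blood stem and progenitor cells.

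Class II promoters carry an X box, which RFX binds, and a Y box, which NFY binds. RefSeq promoter windows (GRCm38.p6, from 250 bases before to 50 bases after each start) were found for 7 of the 10 members. H2-Ab1, Cd74 and Ciita had none. The windows were searched on both strands for the letters AACNNATG, from the X box, and ATTGG, from the Y box; the letters were chosen after reading the windows. Matches of both cannot overlap on 1 strand, though an ATTGG of the other strand can lie inside AACNNATG. Upstream stretches of 5 members are shown, 2 that read higher and 3 that read lower on the irradiated arrays. They let the letters be seen on both sides of that division, though on the higher side AACNNATG is in H2-Eb1 and not in H2-Aa. Matches on the gene's strand are in capitals, and each stretch runs from position -100 to position -36 relative to the start.

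H2-Aa, chr17:34287859-34287923, minus strand: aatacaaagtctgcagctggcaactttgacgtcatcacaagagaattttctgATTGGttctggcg
H2-Eb1, chr17:34305767-34305831, plus strand: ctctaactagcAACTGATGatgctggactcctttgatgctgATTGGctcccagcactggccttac
H2-DMb1, chr17:34153091-34153155, plus strand: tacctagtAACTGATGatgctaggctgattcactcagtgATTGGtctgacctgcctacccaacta
H2-Oa, chr17:34092279-34092343, plus strand: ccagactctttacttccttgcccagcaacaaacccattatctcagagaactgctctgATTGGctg
H2-Ob, chr17:34238805-34238869, plus strand: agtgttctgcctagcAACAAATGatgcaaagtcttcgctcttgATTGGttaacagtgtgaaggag

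The letters AACNNATG were followed by ATTGG on the same strand, with starts 25 to 35 bases apart, in 27 of 32851 promoter windows, or 0.0822%. These 27 include the member windows named below, which were read before the letters were chosen, so the share is no independent comparison. Singly, AACNNATG was in 8.86% of windows and ATTGG in 37.4%. Of the members, H2-Eb1, H2-DMb1, H2-DMb2 and H2-Ob held the pair, with starts 30, 31, 31 and 28 bases apart. H2-Eb2, a class II gene outside the member list, held it too, 30 bases apart. H2-Aa and H2-Oa held ATTGG alone near the start. Neither set of letters was in the first H2-DMa window, and the second held only ATTGG, at position -198. These matches describe the letters, and a window without them says nothing about binding. The H2-DMb1 and H2-DMb2 stretches, compared with no gap over 42 bases, were identical at 37. The pair was thus present both in H2-Eb1, which read higher on the irradiated arrays, and in H2-Ob, which read lower.

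**Figure D1:**
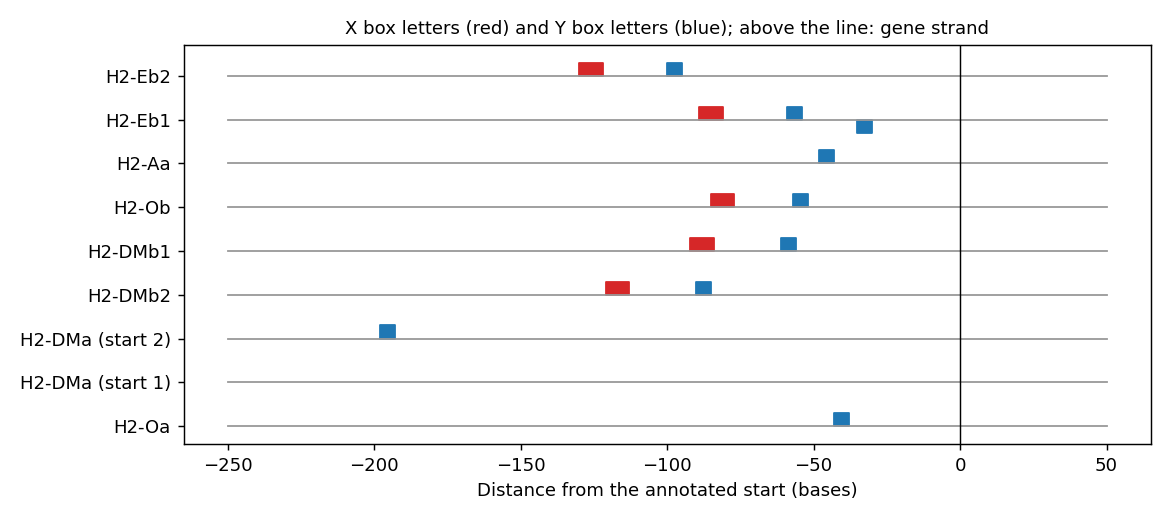
Promoter windows of 8 class II genes, drawn against distance from the annotated start in bases. Red blocks are the X box letters and blue blocks the Y box letters, above the line where they lie on the gene's strand. The red and blue pair stands 28 to 31 bases apart in H2-Eb1, H2-Eb2, H2-DMb1, H2-DMb2 and H2-Ob.

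The members divided by role. The 3 surface chain genes and Cd74 were lowest on the non-irradiated array, higher on CDR and highest on FLASH. The H2-O genes and 2 of the 3 H2-M genes were lower on both irradiated arrays, and Ciita was nearly level. Between CDR and FLASH, H2-DMa, H2-DMb1 and H2-Oa differed by 1.06-fold or less, while H2-Ob was 1.23-fold higher on FLASH. In bulk RNA such as this, a difference in the number of cells of a type and a difference in RNA per cell cannot be told apart.

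H2-Aa, the I-A alpha chain, read 7.77 on the non-irradiated array, 8.44 on CDR and 9.60 on FLASH. This is 1.59-fold higher on CDR and 3.56-fold higher on FLASH than on the non-irradiated array. Its partner H2-Ab1, the I-A beta chain, read 9.13, 9.45 and 10.37 in the same order. The FLASH value was 2.35-fold above non-irradiated and the CDR value 1.24-fold above, so the chains of the I-A pair kept the same order of arrays with different step sizes. H2-Eb1, the I-E beta chain, read 6.61, 7.66 and 8.97. It had the largest range of any member, 2.08-fold higher on CDR and 5.14-fold higher on FLASH than on the non-irradiated array. Its FLASH difference of 2.36 ranked 20 from the highest of 13288 detected genes. Cd74, which chaperones all class II pairs, read 8.68, 9.15 and 10.43. It was 1.38-fold higher on CDR and 3.35-fold higher on FLASH, where its rank was 45, beside 41 for H2-Aa and 103 for H2-Ab1.

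The alpha chain that would pair with H2-Eb1 is not made in C57BL/6 mice. Its gene H2-Ea, annotated as a transcribed pseudogene, read 3.05 on all 3 arrays, under the detection level. The second E beta gene, H2-Eb2, read 2.95 on each array and was also under it.

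H2-DMa, the alpha chain of the peptide editor H2-M, read 10.21 on the non-irradiated array, 9.63 on CDR and 9.67 on FLASH. H2-DMb1, a beta chain of the same editor, read 7.91, 7.08 and 7.11. Both were lower on the irradiated arrays, H2-DMa by 1.49-fold on CDR and 1.45-fold on FLASH, and H2-DMb1 by 1.78-fold and 1.74-fold. The other beta chain gene, H2-DMb2, read 6.69, 6.27 and 7.03. It was lowest on CDR and highest on FLASH, unlike H2-DMb1. H2-DMb1 and H2-DMb2 are close paralogues, and whether their probes separate them is not given in the sources used here, so both values are uncertain.

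The 2 genes of H2-O, the restraint on H2-M that is best known from B cells, were lower on both irradiated arrays. H2-Oa, the alpha chain, read 8.05, 7.17 and 7.09, which is 1.84-fold lower on CDR and 1.95-fold lower on FLASH. H2-Ob, the beta chain, read 6.20, 4.88 and 5.18. Its differences from the non-irradiated array were -1.31 on CDR and -1.02 on FLASH. It was highest without irradiation and lowest on CDR. The FLASH difference passed 2-fold narrowly, at 2.02-fold, and did not pass it after median centring, after quantile normalisation or with an offset of 32, where it was -0.63.

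Ciita read 5.42 on the non-irradiated array and 5.51 on both irradiated arrays, an exact tie between CDR and FLASH. Such ties were common on these arrays, at 54.0% of all probe sets between FLASH and CDR. The difference of Ciita from the non-irradiated array, 0.09, is 1.07-fold. The gene that encodes the family's transactivator therefore showed none of the stepped differences of the surface chain genes on these arrays.

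**Figure D2:**
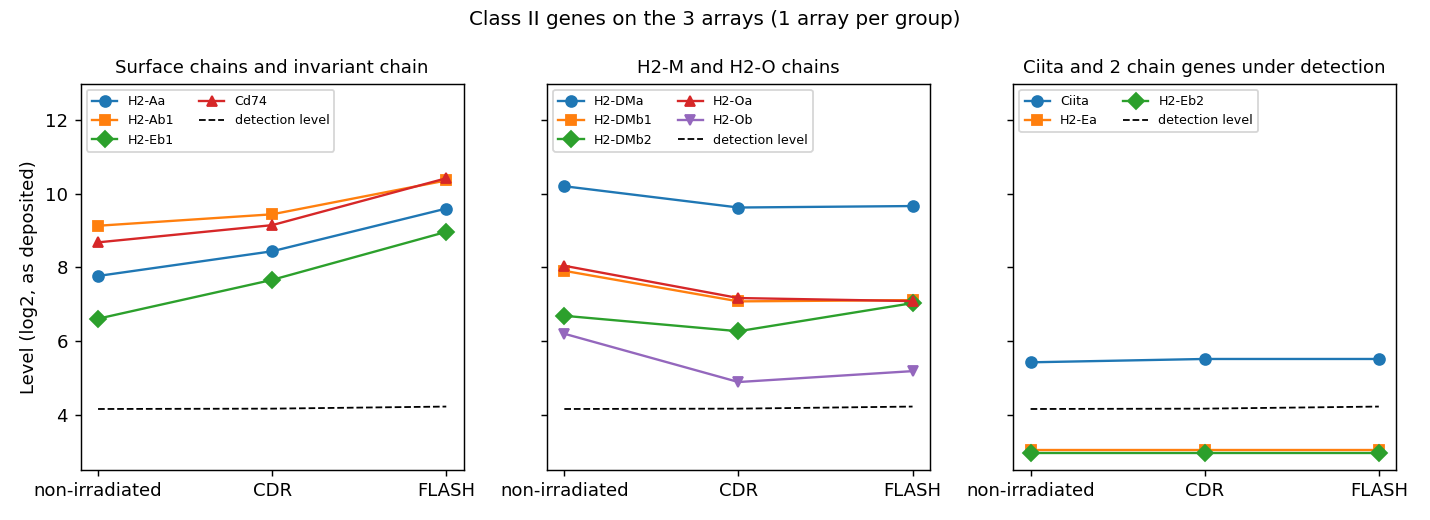
Deposited log2 level of each gene (vertical axis) on the 3 arrays (horizontal axis), 1 array per group, with the dashed detection level. Surface chains and Cd74 step upward from non-irradiated to FLASH, 4 of the 5 H2-M and H2-O genes are lower on both irradiated arrays, and Ciita stays between 5.42 and 5.51.

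Between CDR and the non-irradiated array, 5 of the 10 members were higher and 5 lower. At least 2-fold were 1 higher, H2-Eb1 at 1.06, and 1 lower, H2-Ob. With an offset of 32 added before the log, which shrinks differences of dim genes, neither passed (0.86 and -0.78). Of all 13448 detected genes, 0.766% passed 2-fold upward and 2.36% downward. The members' median difference was -0.16 beside 0.00 for all detected genes. By role, the surface chains had a mean difference of 0.68, the H2-M genes -0.61 and the H2-O genes -1.10. The family as a whole thus had a small median that covers opposite differences.

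In the comparison of FLASH with the non-irradiated array, 6 members were higher and 4 lower. H2-Aa, H2-Ab1, H2-Eb1 and Cd74 were at least 2-fold higher and H2-Ob at least 2-fold lower. The share of 13288 detected genes that did so was 1.17% upward and 1.75% downward. The median of the members was 0.22, against 0.00 for all detected genes. Surface chains had a mean difference of 1.81, or 3.50-fold. The H2-M genes had a mean of -0.33 and the H2-O genes of -0.99.

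The FLASH and CDR arrays, which received the same dose, were compared directly. At least 2-fold higher on FLASH were 3 members, H2-Eb1 at 1.31, Cd74 at 1.28 and H2-Aa at 1.16, and 0 were at least 2-fold lower. H2-Ab1 stood just inside 2-fold at 0.92 and H2-DMb2 at 0.76. H2-DMa (0.04), H2-DMb1 (0.03), H2-Oa (-0.08) and Ciita (0.00) were close to level, and H2-Ob was at 0.30. Among 13184 detected genes, 0.85% passed 2-fold upward on FLASH and 0.144% downward. The members' median was 0.53, beside 0.00 for all detected genes.

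The spread within the family can be read in a way that a constant shift of a whole array leaves untouched. The mean of H2-Aa, H2-Ab1, H2-Eb1 and Cd74, less that of the 5 H2-M and H2-O genes, was 1.43 greater on CDR and 2.39 greater on FLASH than on the non-irradiated array. These groups join the roles with higher and with lower mean differences on the same arrays, and Ciita is left out. The gap therefore describes that division and does not test it. Of 13527 genes above detection on at least 1 array, 93 (0.688%) stepped up by at least 1.2-fold from non-irradiated to CDR and again by at least 1.2-fold from CDR to FLASH. Those 93 included 4 members, the surface chain genes and Cd74. The reverse state, at least 1.2-fold lower on both irradiated arrays, held for 10.4% of genes and for 4 members, H2-DMa, H2-DMb1, H2-Oa and H2-Ob. Both patterns were defined after the members' values were seen.

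**Figure D3:**
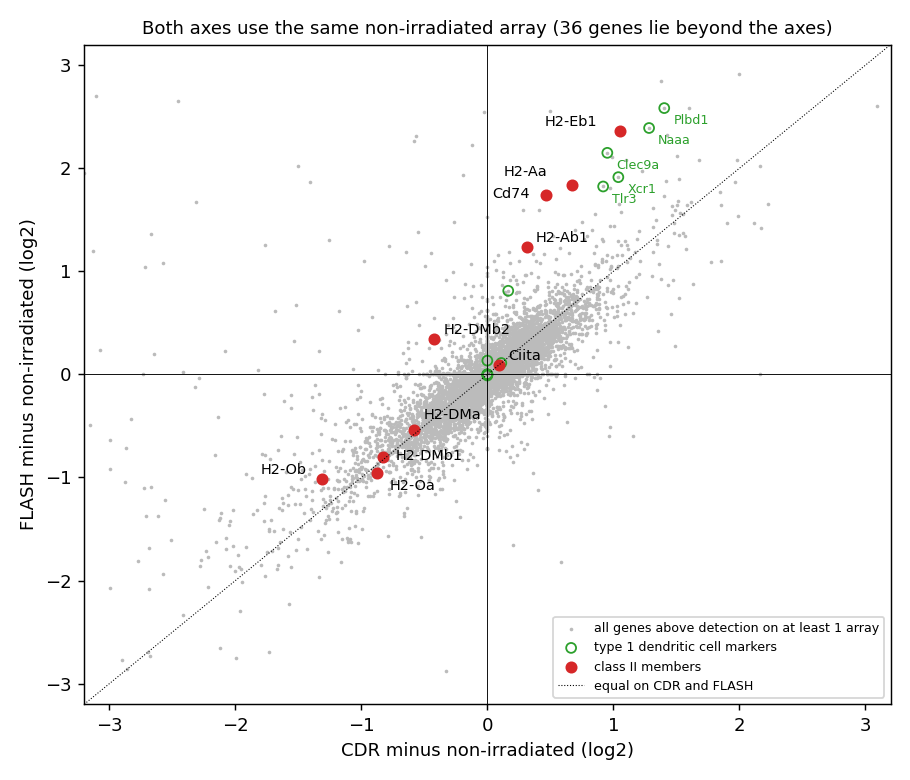
Difference from the non-irradiated array on CDR (horizontal, log2) and on FLASH (vertical, log2) for 13527 genes above detection on at least 1 array, of which 36 lie beyond the axes. Both axes share the non-irradiated array, which alone draws points toward the diagonal. H2-Aa, H2-Ab1, H2-Eb1, Cd74 and H2-DMb2 (red) stand above the diagonal, while H2-DMa, H2-DMb1, H2-Oa and Ciita lie near it.

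Of the 10 members, 8 lie together in the class II region of chromosome 17, and Cd74 and Ciita lie on other chromosomes. In RefSeq order (GRCm38.p6), H2-Oa, H2-DMa, H2-DMb2, H2-DMb1 and H2-Ob come first, and H2-Ab1, H2-Aa and H2-Eb1 follow directly after H2-Ob. All 5 genes of the first stretch read lower on CDR than on the non-irradiated array, and all 3 of the second read higher. The first stretch holds the H2-M and H2-O genes and the second the surface chain genes. Division by role and division by position therefore cannot be told apart in this region. The stretch from H2-DMb1 to H2-Ob also holds Psmb9 and Psmb8, immunoproteasome subunits, and Tap1 and Tap2, the peptide transporter of class I presentation. Of the 5 detected neighbours, 4 were lower on each irradiated array and 1 was tied, with a median of -0.12 on CDR and -0.21 on FLASH and none past 2-fold. Tap2 differed most, at -0.37 on CDR and -0.44 on FLASH. The neighbours' differences from the non-irradiated array were smaller than those of H2-Oa, H2-DMa, H2-DMb1 and H2-Ob around them.

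**Figure D4:**
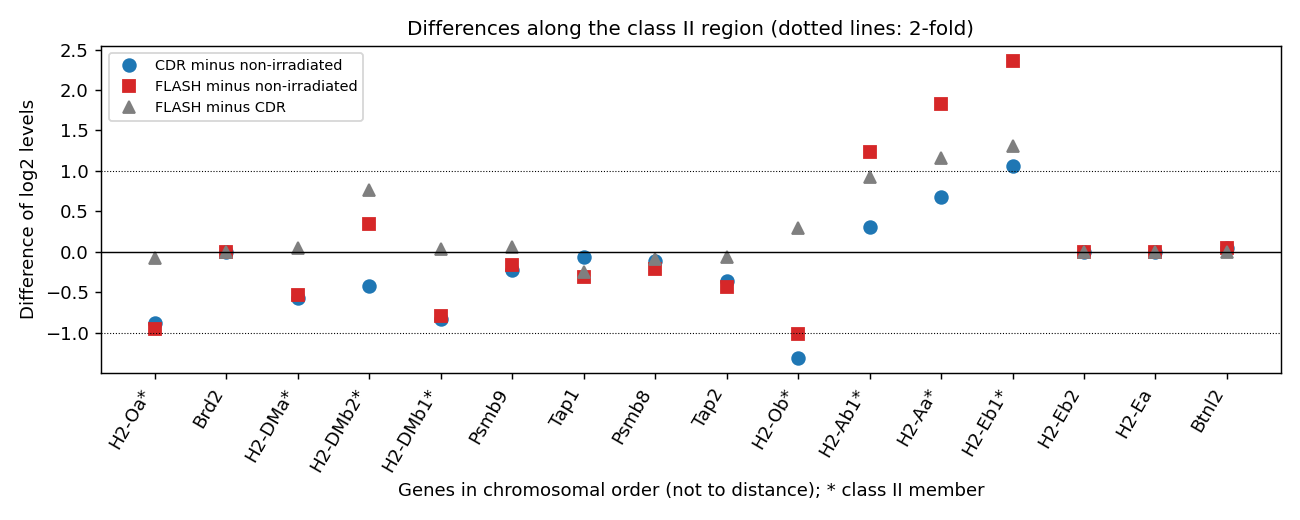
Difference of log2 levels (vertical axis) for 16 genes in chromosomal order, not drawn to distance, with circles for CDR and squares for FLASH against the non-irradiated array and triangles for FLASH against CDR. Members carry a star. The sign of the CDR difference turns between H2-Ob at -1.31 and H2-Ab1 at 0.31.

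Among the other genes of the pathway, as listed here by function, Rfx5 was the 1 gene past 2-fold in any comparison. All 7 promoter factor genes were detected, with a median of 0.00 on CDR and -0.06 on FLASH. Rfx5, a subunit of the RFX complex, read 7.29, 6.90 and 6.28 on the non-irradiated, CDR and FLASH arrays. It was 2.01-fold lower on FLASH than on the non-irradiated array, just inside 2-fold after median centring (-0.98) or quantile normalisation (-0.99). With an offset of 32 the difference was further inside, at -0.78. The other 6 factors were within 2-fold in each comparison. The order of the arrays for Rfx5 was the reverse of that for the surface chain genes.

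The interferon gamma route, which induces Ciita in many cell types, had 8 measured genes, all within 2-fold in each comparison. Its median was -0.02 on CDR and 0.00 on FLASH. Irf2, an interferon regulatory factor, differed most, with 8.52, 7.79 and 7.98. Endosomal processing genes were all within 2-fold as well, 9 of 9, with medians of 0.00 on CDR and 0.01 on FLASH. Ctsz, a lysosomal carboxypeptidase, read 8.86, 9.68 and 9.33. Ctss, the protease that trims the invariant chain, was nearly level at 8.22, 8.20 and 8.18 (named after its values were seen). Ifi30 of the same list read 7.22, 7.80 and 7.79, or 1.49-fold higher on CDR and 1.48-fold on FLASH (also named afterwards). Of the 9 processing genes, 3 were higher, 4 lower and 2 tied on CDR. On FLASH 5 were higher and 4 lower.

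Cd83, which protects surface class II from turnover, read 5.47 on the non-irradiated array, 5.53 on CDR and 6.06 on FLASH. The 4 turnover genes had a median of 0.06 on FLASH against the non-irradiated array. Of the 9 co-stimulation genes, 6 were detected, and 5 of these were tied on all comparisons. The exception was Cd86, a ligand of CD28 on presenting cells, which read 4.56, 4.56 and 5.55, or 1.98-fold higher on FLASH. Cd80, Pdcd1lg2 and Cd70 were under the detection level on all arrays. Genes tied to Cd74 as a receptor of the cytokine MIF were within 2-fold for 4 of 4, Cxcr2 differing most at 0.26 on CDR.

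Class I presentation genes, which serve CD8 T cells and most nucleated cells, were read as well. All 7 were detected and within 2-fold, with median differences from the non-irradiated level of -0.12 on CDR and -0.20 on FLASH. Between FLASH and CDR their median was -0.01, while the class II members' was 0.53.

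Markers of the cell types that carry class II were read beside these values. Of 13 type 1 dendritic cell markers, 12 were detected, and relative to the non-irradiated level 5 passed 2-fold upward on FLASH, 3 did so on CDR, and none passed it downward. Of all detected genes, 1.17% passed 2-fold upward on FLASH and 0.766% on CDR, and 1.75% and 2.36% passed it downward. Clec9a, a receptor for dead cells, read 4.23, 5.18 and 6.38 on the non-irradiated, CDR and FLASH arrays. Xcr1, a chemokine receptor, read 4.20, 5.24 and 6.11. Like the surface chains, both were lowest without irradiation and highest on FLASH.

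The lysosomal amidase gene Naaa, at 5.50, 6.78 and 7.89, and Plbd1, at 6.27, 7.68 and 8.86, had the same order. So did Tlr3, a sensor of double-stranded RNA, which read below detection without irradiation and was at least 3.40-fold higher on FLASH. With an offset of 32, Xcr1 and Naaa on CDR (0.47 and 0.88) and Tlr3 on FLASH (0.91) fell inside 2-fold. The list's other differences past 2-fold from the non-irradiated array did not. The other markers of that cell type were not all of this kind. Its transcription factor genes Batf3 and Irf8 were tied on the 3 arrays at 4.62 and 7.83, as were 39.8% of all probe sets. Itgae was under the detection level throughout. The list's median was 0.14 on CDR and 0.47 on FLASH, and its summed linear level was 1355, 1606 and 2173 on the non-irradiated, CDR and FLASH arrays. Without Plbd1, the gene of the list with the largest range, the sum was 1278, 1401 and 1709. The summed level of the 10 class II members was 3196, 3039 and 5275. That sum joins opposite differences, with 5 members higher and 5 lower on CDR, and bright genes weigh most in it. H2-DMa, the brightest member without irradiation, read 10.21, 9.63 and 9.67, and no member sum was taken with 1 gene left out. What part the cells of the type 1 dendritic cell markers have in the class II levels was not tested. Several of these markers were known from earlier results on the same arrays when the list was written.

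Among 7 general dendritic cell markers, Ccl22, a chemokine, read below detection without irradiation and was at least 2.25-fold higher on FLASH. Flt3, which progenitors also carry, was lower, at 8.69, 7.64 and 7.22. Zbtb46, a transcription factor of this lineage, read 4.27, 4.27 and 4.49, and Itgax 4.01, 4.01 and 4.32, both near the detection level. The list's summed level was 553, 346 and 323, an order set by Flt3. Without Flt3 the other 6 genes summed to 140, 147 and 174, lowest without irradiation and highest on FLASH. This order was not shared by all 6. Ccl22, at 3.98, 4.50 and 5.32, differed most. Fscn1 was lower on both irradiated arrays, at 4.95, 4.73 and 4.76, and Ccr7 was tied on all 3. The list's median difference from the non-irradiated level was 0.00 on CDR and 0.22 on FLASH, where 4 genes were higher, 2 lower and 1 tied. The part of these cells in the class II levels was not tested.

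Marker lists of the other presenting cell types are given with their sums, and again without the gene that ranged most, since 1 gene often set the order. Of 7 type 2 dendritic cell markers, Mgl2, Cd209a and Clec4a4 were under the detection level on all arrays and Itgam was lower on FLASH at -1.35. Clec10a, a lectin receptor, was higher on both irradiated arrays, at 4.50, 5.07 and 4.86 (named after its values were seen). The list summed to 388, 362 and 328, and without Itgam to 302, 308 and 294. Of 9 plasmacytoid dendritic cell markers, Siglech, Ccr9, Klk1, Spib and Pacsin1 were under detection throughout and Ly6d was at -1.91 on CDR. Their summed levels were 1093, 951 and 1004, and 929, 908 and 920 without Ly6d. Of 10 B cell markers, Ms4a1, Ebf1, Cd22, Fcer2a and Cr2 were under detection throughout, and none passed 2-fold. The B cell markers' summed levels were 702, 542 and 432, or 177, 160 and 166 without Cd79b. Cd79b read 9.04, 8.58 and 8.05, or 1.98-fold lower on FLASH. Of the 5 detected B cell markers, 0 were higher, 3 lower and 2 tied on each irradiated array. All 10 monocyte and macrophage markers read above detection on at least 1 array, with summed levels of 3148, 3881 and 2483, or 981, 1511 and 1044 without Ly6c2. Ccr2 was at 1.46 on CDR against the non-irradiated array, and Csf1r at -1.01 between FLASH and CDR. Within the list the genes differed: on CDR 4 were higher, 3 lower and 3 tied, with a median of 0.00. The complement genes C1qa, C1qb and C1qc of macrophages were the 3 lower, at -0.29, -0.28 and -0.14 (named after their values were seen). Against the non-irradiated array, FLASH had 9 detected genes of this list, 1 higher, 6 lower and 2 tied, with a median of -0.13. The 1 higher was Ccr2 at 0.59, and Csf1r was lowest at -0.78.

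Antibody-secreting cell markers had summed levels of 1384, 690 and 1229, and 499, 489 and 566 without Jchain. Jchain, the antibody joining chain, read 9.79, 7.65 and 9.37, and Mzb1, an antibody chaperone, 6.50, 5.22 and 6.06, both lowest on CDR. Of this list Prdm1 was under the detection level throughout. Among 6 T cell markers, Cd3e, Cd3d, Cd3g and Cd8b1 were under it on all arrays, and the summed levels were 78.5, 72.1 and 73.5, or 57.9, 58.8 and 60.2 without Cd4.

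**Figure D5:**
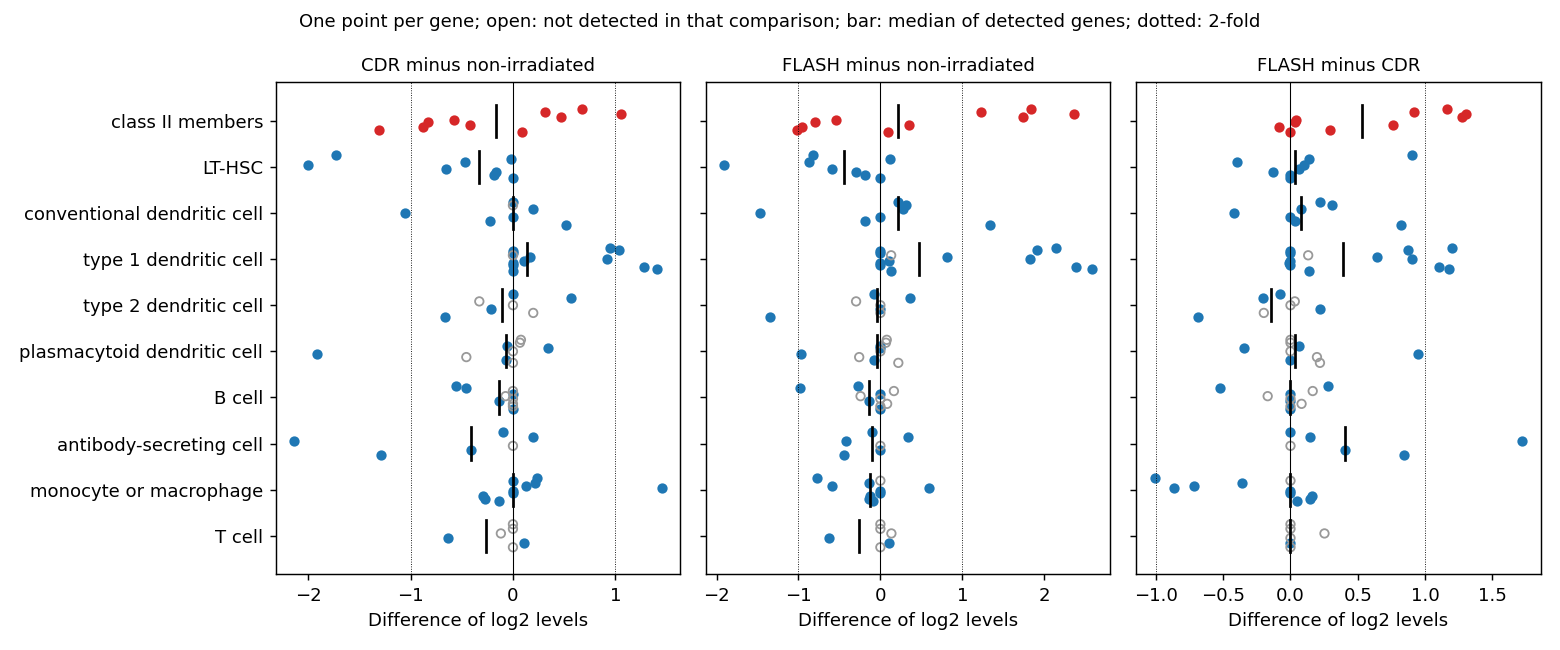
Difference of log2 levels (horizontal axis) in each of the 3 comparisons for the class II members (red) and marker lists of 9 cell types (blue), 1 point per gene, open where not detected, with the median of detected genes as a bar. In the FLASH comparison with the non-irradiated array, the members range from -1.02 to 2.36, and the type 1 dendritic cell list has 5 genes past 2-fold on the right.

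Genes with a pattern like that of H2-Aa, H2-Ab1, H2-Eb1 and Cd74 were ranked by Euclidean distance. The reference was the mean difference of these 4 members from the non-irradiated array, 0.63 on CDR and 1.79 on FLASH. Over 3 arrays and 12043 genes, the nearest 10 were Dnase1l3, Tlr3, Hspa1b, Podxl, Bcl2a1a, Clca3a1, Xcr1, Mcpt4, Camsap2 and Ccl22, at distances of 0.29 to 0.46. Of these, 5 read below detection without irradiation, and 3 (Tlr3, Xcr1 and Ccl22) stand in the dendritic cell marker lists. Dnase1l3, a secreted DNase, read under detection on both the non-irradiated and CDR arrays, so its distance and place have no measured basis there, and its FLASH level of 5.23 is at least 2.12-fold above the detection level of the non-irradiated array. Podxl, a sialomucin, read 4.75, 5.50 and 6.23 and was above detection on all 3 arrays. Bcl2a1a belongs to near-identical copies whose signals are uncertain. None of the 10 stayed among the nearest when an offset of 32 was added before the log.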

How the data were processed

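The authors deposited 1 processed log2 level per probe set and array; log2 was inferred from the range of values. Per the submitters' processing notes the software was Partek, with no version. How background was corrected and how probes were summarised and normalised is not given in the sources used here. Arrays were grouped by their titles, and having 1 per group limits the precision. Symbols came from the platform's probe table: 23185 probe sets had 1, 0 had several and 2021 had none. Values were used as deposited and subtracted; no test was run. Folds of genes under the detection level on the dimmer array are lower bounds against that level. Only the counting of genes past 2-fold was tried on simulated arrays, with planted differences past 2-fold in well-detected genes and no ties. The other steps were not tried in this way.

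The members, gene lists and marker lists were chosen with earlier results of these data known. Every member was named; of each related list the genes past 2-fold (at most 2 per direction) or else the 1 that differed most, of each marker list those past 2-fold and those under detection, and the 10 genes nearest in pattern (without gene models, segments, histones and small RNAs). The alternatives tried were centring on the median, quantile and cyclic loess normalisation (R 4.3.3, limma 3.58.1), adding an offset of 32, dim values raised to detection, other filters, folds of 1.5 and 3, the mean, and H2-DMb1 and H2-DMb2 counted once. Python 3.11.15, numpy 2.4.6, pandas 2.3.3 and matplotlib 3.10.9 were used.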

Additional observations from a re-analysis of the deposited data

Results flagged for a closer look

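H2-DMb2 was the only one of the 10 members with differences from the non-irradiated array in opposite directions, -0.42 on CDR and 0.34 on FLASH. Each rests on 1 array, and the difference between them was not tested.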

How the results depend on the processing

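All 30 member differences (10 members in 3 comparisons) kept their direction under median centring, quantile normalisation, cyclic loess, the offset and raised dim values, except that Ciita's tie between FLASH and CDR gave -0.03 to 0.00. The largest move was 0.54, for H2-Ob on CDR with the offset. A value was taken as moved when it shifted by more than the SD of the unexpressed receptor genes' differences. Counting H2-DMb1 and H2-DMb2 once turned the members' median on CDR from -0.16 to 0.091, and the mean of the FLASH differences from non-irradiated was 0.43 against a median of 0.22. With the offset, 0 members were at least 2-fold higher on CDR, 0 lower on CDR and 0 lower on FLASH; H2-Ob alone had passed on FLASH, and 0 passed there after median centring or quantile normalisation. At 1.5-fold, 2 members were higher and 3 lower on CDR, 3 lower on FLASH, and 5 higher on FLASH than on CDR. At 3-fold, 0 were higher or lower on CDR, 0 lower on FLASH and 0 higher between FLASH and CDR, while 3 stayed higher on FLASH than non-irradiated. The shares of all detected genes past 1.5-fold and 3-fold were not computed, so these counts have no share to be read against. Other counts stayed within 1.5 times. Of 25 differences past 2-fold in the related and marker lists, 11 fell inside it with the offset, among them Xcr1 on CDR and Tlr3 and Ccl22 on FLASH, 2 after median centring (Flt3 on CDR, Rfx5 on FLASH), 1 after quantile normalisation (Rfx5) and 0 under cyclic loess or with dim values raised. Of the 10 genes nearest in pattern, 10 stayed under median centring and cyclic loess, 8 under quantile normalisation, 6 with dim values raised and 0 with the offset. No paired analysis was possible because each group has 1 array and the result comes from no test.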
